A study of Homo sapiens with 6 samples.

Results

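The creatine system of SW480 cells was followed through 8 genes chosen by name from the 19225 symbols of the table, namely the creatine kinases *CKMT1A*, *CKMT1B*, *CKMT2*, *CKB* and *CKM*, the synthesis enzymes *GATM* and *GAMT*, and the transporter *SLC6A8*. All 8 were listed. SW480 is an established human colon cancer cell line, given in the labels as a tumor cell with mutant p53. Its RNA was sequenced in 3 control libraries and in 3 libraries of cells transiently transfected with plasmids that encode MDM4, a negative regulator of p53. The labels give plasmid transfection for both groups and do not say what the control plasmid carried. They call the second group "exercised", and since no further group is labelled besides control, this one was taken for the MDM4 cells. All 6 libraries come from 1 cell line, and nothing says that the replicates were separate cultures, so the spread between them may be technical.

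Creatine kinases move a phosphate group between ATP and creatine, and phosphocreatine thereby carries high-energy phosphate from the places where ATP is made to those where it is used. The mitochondrial enzymes lie in the space between the mitochondrial membranes, whereas the brain-type (*CKB*) and muscle-type (*CKM*) enzymes are cytosolic. Creatine itself is made from arginine and glycine in steps, first by *GATM* and then by *GAMT*, whose methylation yields creatine. It is also taken up from outside by *SLC6A8*.

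The family came to attention because *CKMT1B* was low in the MDM4 libraries. The values that compare MDM4 with control in the 8 genes are therefore a description of the pattern that drew attention to them. The sums and shares that hold *CKMT1B* rest on the same values and are given without a test. Calls among the 8 genes are printed further below beside the share of all genes, as a description only.

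*CKMT1A* and *CKMT1B* encode the ubiquitous mitochondrial creatine kinase from a pair of near-identical genes, and the extent of their likeness decides what a read can say about either of them. In GENCODE release 29 (GRCh38), *CKMT1B* lies on the plus strand at chr15:43593054-43604901 and *CKMT1A* on the same strand at chr15:43692886-43699222, with 87984 bases between them. Matched coding transcripts of both genes have 10 exons and 1779 bases, of which 1775 (99.78%) are identical. The first 1447 bases do not differ at all. Counted from the 5′ end of the transcript, with the *CKMT1B* base first, the 4 differences are A1448G and T1478C in exon 9, within the coding sequence, and C1679A and C1733T in exon 10, within the 3′ UTR. These are the only bases of the matched transcripts by which a read can be given to a copy, so the 29 bases around each of the coding pair are printed with the differing base in capitals.
CKMT1B (chr15:43598857-43598885, plus strand): ctaagactccaaaaAcgtggtactggagg
CKMT1A (chr15:43698671-43698699, plus strand): ctaagactccaaaaGcgtggtactggagg
CKMT1B (chr15:43598887-43598915, plus strand): gtggacactgctgcTacaggcggtgtctt
CKMT1A (chr15:43698701-43698729, plus strand): gtggacactgctgcCacaggcggtgtctt

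**Figure D1:**
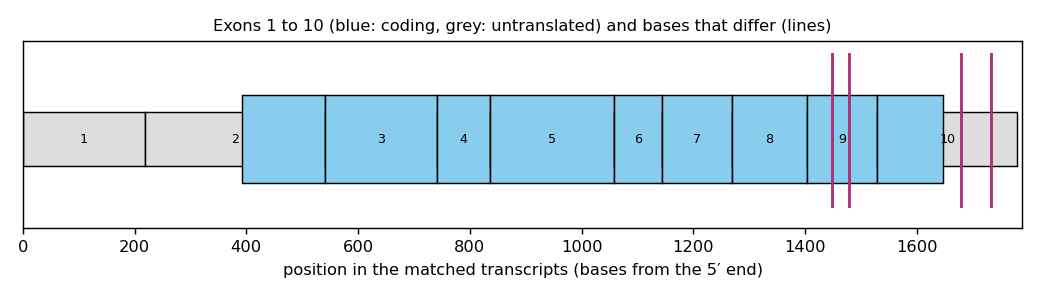
Exons of the matched *CKMT1A* and *CKMT1B* transcripts along the transcript in bases, with coding sequence in blue, untranslated sequence in grey and the 4 differing bases as lines. The differences lie at positions 1448, 1478, 1679 and 1733 of 1779, in the last 2 of 10 exons.

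Of all stretches of 50 bases in the matched *CKMT1B* transcript, 89.8% also occur in a *CKMT1A* transcript. For 100 bases the share was 86.2% and for 150 bases it was 82.8%. The read length and the rule by which shared reads were counted are not given in the sources used here. The gene lengths implied by the deposited values were 1976 bases for *CKMT1B* and 1812 for *CKMT1A*. The counting thus used longer gene models than the matched transcripts, and whether these hold further differing bases was not examined. Values of either copy alone are thus uncertain, and their sum is given beside them. The other kinases are distant enough to be told apart. The coding sequence of *CKMT1B* was 71.4% identical to that of *CKMT2*, 60.9% to *CKB* and 59.4% to *CKM*, and that of *CKB* was 78.8% identical to *CKM*, with 0 shared stretches of 50 bases in each of these pairs.

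The likeness of the copies extends to their starts. The RefSeq promoter windows (GRCh38.p14, 250 bases before to 50 after a start) are printed because the copies were listed at different levels and these stretches are shared. Capitals mark the E-box CACGTG and the GC box GGGCGG, searched on both strands.
CKMT1B (chr15:43593584-43593883, plus strand): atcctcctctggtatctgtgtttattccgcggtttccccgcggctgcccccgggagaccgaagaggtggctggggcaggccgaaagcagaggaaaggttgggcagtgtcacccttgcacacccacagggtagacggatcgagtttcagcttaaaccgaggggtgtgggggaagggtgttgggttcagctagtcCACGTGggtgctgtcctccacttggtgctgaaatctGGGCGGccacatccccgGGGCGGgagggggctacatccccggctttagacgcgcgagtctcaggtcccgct
CKMT1A (chr15:43693441-43693740, plus strand): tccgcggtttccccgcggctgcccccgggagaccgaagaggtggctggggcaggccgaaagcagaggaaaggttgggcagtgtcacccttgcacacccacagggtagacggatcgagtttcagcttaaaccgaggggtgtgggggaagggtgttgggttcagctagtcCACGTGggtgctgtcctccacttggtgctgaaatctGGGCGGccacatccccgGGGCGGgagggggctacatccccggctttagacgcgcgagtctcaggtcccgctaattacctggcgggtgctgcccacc

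The printed windows share 275 bases without a mismatch, a likeness for which the pair was selected. Each holds 1 E-box, which 7.3% of 35116 promoter windows of this length hold on either strand, and 2 GC boxes, a motif found in 45.0% of the windows. The letters CCAAT and TATAAA were in neither of these windows, against 34.6% and 11.5% of all windows. RefSeq lists 2 windows for *CKMT1B* and 5 for *CKMT1A*, and the motifs are not in all of them. The E-box is in 1 of the 2 and in 2 of the 5, the GC box in 1 of the 2 and in 3 of the 5, and CCAAT in 0 of the 2 and in 2 of the 5.

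The authors deposited FPKM, a read number made comparable between genes and libraries by dividing through gene length and library total. From the steps in these values the whole reads were recovered, and the library totals were between 33044788 and 44729596. *MDM4* checked the labels. Control replicates 1 to 3 held 6.35, 7.09 and 5.13 FPKM of it, and MDM4 replicates 1 to 3 held 188, 185 and 56.3 FPKM. All MDM4 libraries were above all controls (two-sided exact permutation, p = 0.1, which no split of 3 against 3 libraries can go below). Replicate 3 stood apart from replicates 1 and 2 in both groups, and values over replicates 1 and 2 alone are therefore given as well. Of 10 colon epithelial markers, 7 reached a mean of 0.5 FPKM, and *KRT20*, *CDH17* and *LGR5* did not. The sum of the 10 was between 4544 and 4902 FPKM in control and between 4221 and 4520 FPKM in MDM4 libraries. Most of it came from the keratins *KRT8*, *KRT18* and *KRT19*, with means of 1726, 1612 and 991 FPKM over all libraries. The median marker of this list was at 16.8 FPKM. Of 10 muscle markers 2 reached a mean of 0.5 FPKM, with sums of 2.67 to 4.77 FPKM over all libraries. Of 6 macrophage markers 2 did, with sums of 5.24 to 6.20 FPKM.

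In the control cells the creatine genes ranged from the barely detected *CKM*, above 28% of all symbols, to the abundant *CKB*. *CKB* was by far the most abundant, at 135 ± 16.2 FPKM (SD, n = 3), above 97.8% of all symbols. *SLC6A8* followed at 58.1 ± 5.49 FPKM and *GAMT* at 22.5 ± 2.12 FPKM (SD, n = 3 each). The mitochondrial kinase best known from heart and skeletal muscle, *CKMT2*, was at 11.0 ± 1.83 FPKM (SD, n = 3), higher than *CKMT1B* at 4.50 ± 1.04 FPKM and *CKMT1A* at 0.842 ± 0.0757 FPKM (SD, n = 3 each). *GATM*, at 0.221 ± 0.119 FPKM, and *CKM*, at 0.192 ± 0.0904 FPKM (SD, n = 3 each), closed the order. FPKM is per length, so the genes can be set in order within a library. The place of the *CKMT1* copies in this order is less safe. If reads shared by both copies were dropped, their values are too low, and the counting rule is not known. In all 6 libraries each gene down to *CKMT1A* lay above the next, while *GATM* and *CKM* overlapped.

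**Figure D2:**
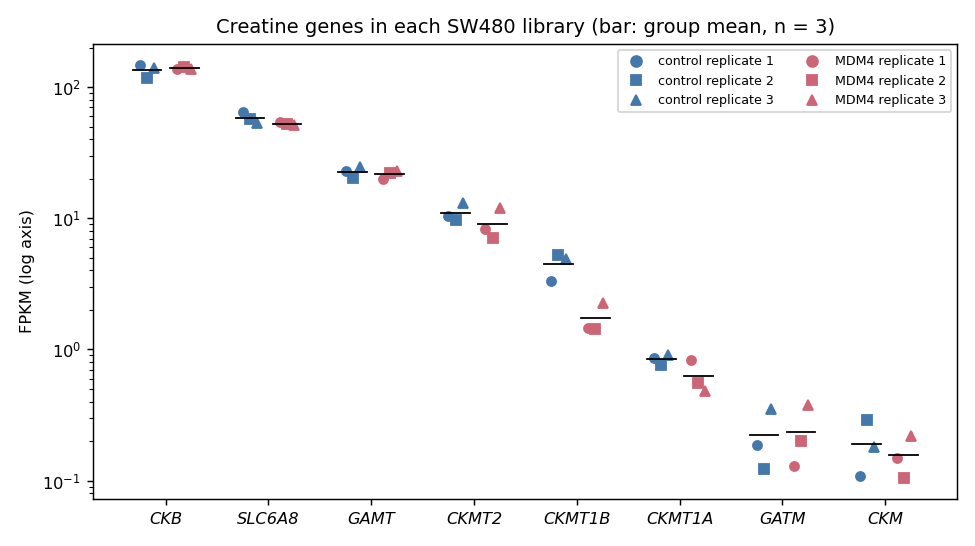
FPKM on a log axis for the 8 creatine genes in each of the 6 libraries, with replicates 1 to 3 as circles, squares and triangles and a bar at each group mean. Control and MDM4 points separate for *CKMT1B* alone, from 3.32 to 5.27 FPKM in control against 1.44 to 2.27 FPKM with MDM4.

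Among the kinases, the cytosolic *CKB* made up between 88% and 93.9% of the summed FPKM of all 5. Across the same libraries *CKMT2* made up 4.68% to 8.25% and both *CKMT1* copies together 1.32% to 4.54%. The share of the copies would be too low if reads shared by both were dropped. The sum of all 5 kinases was 151 ± 16.3 FPKM in control and 151 ± 2.05 FPKM in MDM4 libraries (SD, n = 3 each). *CKB* sets this sum almost alone, and the sum says little about the mitochondrial kinases.

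*CKMT1B* had 293, 371 and 392 reads in control replicates 1 to 3, which gave 3.32, 5.27 and 4.93 FPKM. It had 105, 99 and 148 reads in MDM4 replicates 1 to 3, which gave 1.46, 1.44 and 2.27 FPKM. The groups did not overlap, and the lowest control library was 1.46-fold above the highest MDM4 library. The group means were 4.50 ± 1.04 and 1.72 ± 0.471 FPKM (SD, n = 3 each), a log2 fold change of -1.34 (standard error 0.25), and over replicates 1 and 2 alone it was -1.46 (standard error 0.20). Each MDM4 library was lower than the control library of its number, at 44% of it in replicate 1, 27.4% in replicate 2 and 46.0% in replicate 3. By the size of its fold change *CKMT1B* was the 20th of 12884 genes tested, and 35 (0.272%) of them exceeded 1 in absolute log2 fold change. In these bulk libraries, fewer cells with the transcript and less transcript per cell cannot be told apart.

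*CKMT1A* rested on fewer reads, with 70, 49 and 66 in control and 55, 35 and 29 in MDM4 replicates 1 to 3. In FPKM these were 0.864, 0.758 and 0.905 for control and 0.834, 0.556 and 0.484 for MDM4. The groups overlapped through MDM4 replicate 1, and the log2 fold change was -0.41 (standard error 0.26), or -0.22 over replicates 1 and 2 alone. Relative to the control library of the same number, *CKMT1A* was at 96.5%, 73.4% and 53.5% in replicates 1 to 3.

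Reads given to the wrong copy stay within the sum of both copies, though their FPKM shifts slightly because the gene lengths differ. Shared reads that were dropped or counted more than once would alter the sum too, and the counting rule is not known. For control replicates 1 to 3 it came to 4.18, 6.02 and 5.84 FPKM, and for MDM4 replicates 1 to 3 to 2.29, 2.0 and 2.75 FPKM. The groups did not overlap. The ratio of the group means was 0.439, or -1.19 on the log2 scale, and over replicates 1 and 2 alone it was -1.25. Without 1 library at a time it was between -1.34 and -1.08.

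The share of *CKMT1A* in the reads of both copies describes the split between them, and low *CKMT1B* enters it directly. In control replicates 1 to 3 it was 19.3% (95% Wilson interval 15.6% to 23.7%), 11.7% (8.94% to 15.1%) and 14.4% (11.5% to 17.9%). In MDM4 replicates 1 to 3 it was 34.4% (27.5% to 42.0%), 26.1% (19.4% to 34.1%) and 16.4% (11.7% to 22.5%). These intervals cover counting error only. MDM4 replicates 1 and 2 lay above all control libraries, whereas MDM4 replicate 3 lay within them. The share was higher with MDM4 in each of the 3 same-numbered pairs. The mean share was 15.1% ± 3.86 in control and 25.6% ± 9.01 with MDM4 (SD, n = 3 each). On FPKM the shares were 16.3% and 27.3%, a difference of 11.0 percentage points, which was 6.46 points without MDM4 replicate 1 and 15.8 points without MDM4 replicate 3.

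**Figure D3:**
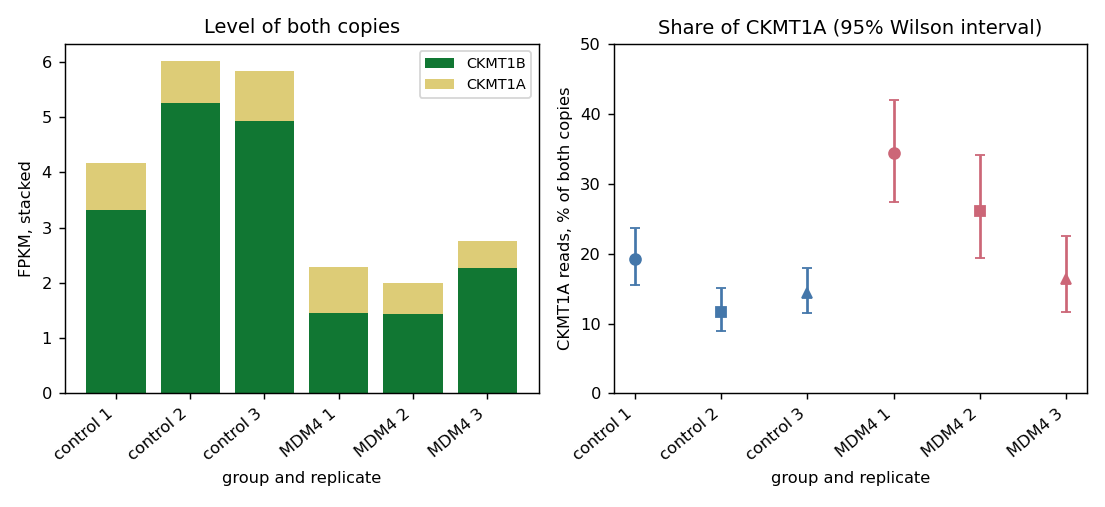
Left, stacked FPKM of *CKMT1B* (green) and *CKMT1A* (yellow) in each library; right, the percentage of both copies' reads given to *CKMT1A*, with 95% Wilson intervals. The sums are 4.18 to 6.02 FPKM in control and 2.0 to 2.75 FPKM with MDM4, and the share in MDM4 replicate 3, at 16.4%, lies within the control range.

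*CKMT2*, the other mitochondrial kinase, measured 10.3, 9.65 and 13.1 FPKM in control replicates 1 to 3, against 8.22, 7.10 and 12 FPKM in MDM4 replicates 1 to 3. In both groups replicate 3 was the highest, and the groups overlapped because of it. The log2 fold change was -0.30 (standard error 0.21) over all libraries and -0.38 (standard error 0.11) over replicates 1 and 2 alone. It was -0.14 without MDM4 replicate 2, -0.17 without control replicate 3 and -0.51 without MDM4 replicate 3. Within same-numbered libraries *CKMT2* was at 79.4%, 73.5% and 91.5% of control. The antisense gene *CKMT2-AS1* overlaps *CKMT2* on the opposite strand, and whether the counting used strand is not given in the sources used here. Of the summed mitochondrial kinases, both *CKMT1* copies held 28.8%, 38.4% and 30.8% in control libraries and 21.8%, 22.0% and 18.7% in MDM4 libraries, by replicate number. How shared reads were counted bears on these shares as well.

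The cytosolic kinases did not separate the groups. *CKB* was at 148, 117 and 140 FPKM in control and at 138, 143 and 137 FPKM in MDM4 replicates 1 to 3, a log2 fold change of 0.05 (standard error 0.091). Its sign turned to -0.05 without control replicate 2, the lowest library. *CKM*, the muscle enzyme, was close to the limit of detection, with between 6 and 17 reads per library and 0.104 to 0.288 FPKM.

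Of the synthesis enzymes, *GAMT* was at 22.8, 20.3 and 24.5 FPKM in control and at 20.1, 22.1 and 23.1 FPKM in MDM4 replicates 1 to 3. Its log2 fold change was -0.05 (standard error 0.10) and turned to 0.012 without control replicate 3 and to 0.0049 without MDM4 replicate 1. *GATM*, the first enzyme of the route, had between 12 and 39 reads per library. It was at 0.188, 0.123 and 0.354 FPKM in control and at 0.130, 0.20 and 0.376 FPKM in MDM4 replicates 1 to 3, highest in replicate 3 of either group. In every library the enzyme of the second step, *GAMT*, was far above that of the first.

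The transporter *SLC6A8* was at 64.0, 56.8 and 53.3 FPKM in control and at 53.8, 52.2 and 51.2 FPKM in MDM4 replicates 1 to 3. The groups overlapped narrowly, MDM4 replicate 1 lying just above control replicate 3. The log2 fold change was -0.14 (standard error 0.083), or -0.19 over replicates 1 and 2 alone, and MDM4 was at 84.0%, 91.9% and 96.2% of control within same-numbered libraries. Without control replicate 1, the highest library, the log2 fold change was -0.070.

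**Figure D4:**
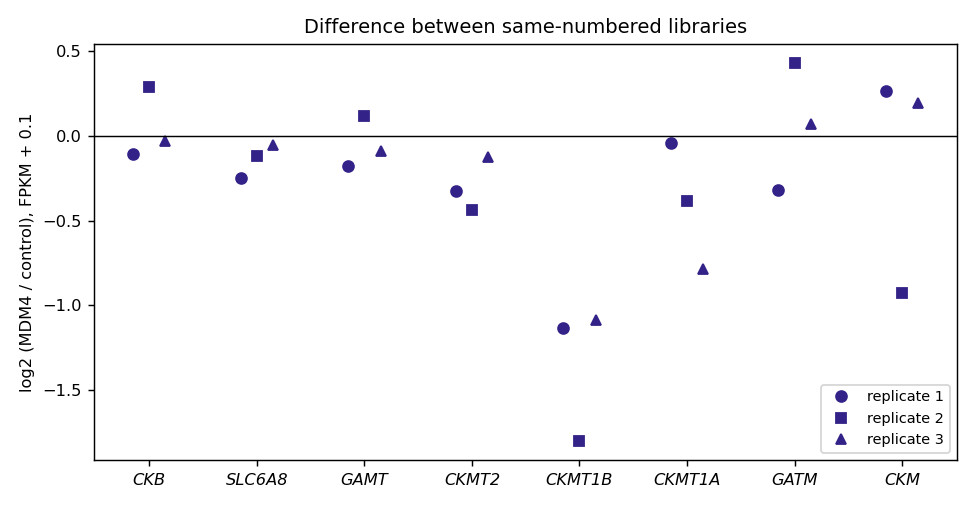
Log2 ratio of MDM4 over control for same-numbered libraries, on FPKM + 0.1, for the 8 genes (circle, square and triangle for replicates 1 to 3). *CKMT1B* lies at -1.13, -1.80 and -1.09, and *CKB*, *GAMT*, *GATM* and *CKM* have points on both sides of 0.

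Differential expression was fitted with limma on log2(FPKM + 0.1) over the 12884 genes that averaged 0.5 FPKM or more, and a gene was called at an adjusted p under 0.05 with an absolute log2 fold change over 1. Of the 8 creatine genes 6 passed the filter, and *GATM* and *CKM* fell below it. Without a block, limma called 0 of the 6, as it called 0.0% of all genes. The transfected *MDM4* was not called either, at a log2 fold change of 4.33 (limma, adjusted p = 0.161). A list with 0 calls in this fit is therefore not shown to be unchanged. At an unadjusted p under 0.05 there was 1 of 6, *CKMT1B*, against 1.72% of all genes, and voom called 0 creatine genes without a block. With the replicate number as a block, limma called 1 of 6, *CKMT1B*, against 0.0155% of all genes. Over replicates 1 and 2 alone limma called the same 1 gene, against 0.29% of all genes, and so did limma's voom on recovered reads when blocked by replicate number, against 0.109%. At an unadjusted p under 0.05 the limma fit with the block gave 3 of 6, *CKMT1B*, *CKMT2* and *SLC6A8*, against 12.6% of all genes. This is the contrast by which the family was chosen, and nothing is read from these counts.

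Groups that did not overlap were found in 1 of the 6 genes, against 6.85% of all tested genes. It was 1 of 6 with MDM4 lower, against 3.76%, and 0 of 6 with MDM4 higher, against 3.1%. MDM4 was lower in each of the 3 same-numbered pairs for *CKMT1A*, *CKMT1B*, *CKMT2* and *SLC6A8*, a pattern that 18.6% of all tested genes shared. The 6 genes had a median log2 fold change of -0.22, where the median of all tested genes was -0.0091. This is again the contrast by which the family was chosen, and *CKMT1A* and *CKMT1B* may share reads. Nothing is read from these counts or from the median.

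A limma term gave the effect of MDM4 in replicate 3 minus its effect in replicates 1 and 2. It had an adjusted p under 0.05 in 0 of the 6 creatine genes and in 0.194% of all genes. For *CKMT1B* the term was 0.38 (standard error 0.35) and for *CKMT1A* -0.57 (standard error 0.47), both on the log2 scale. The term rests on 1 library per group in replicate 3, with the spread taken from replicates 1 and 2, so it assumes that replicate 3 varies like them. *CKMT1B* was low with MDM4 in replicate 3 as well, where *MDM4* itself reached only 56.3 FPKM.

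Neighbours of the copies on chromosome 15 show how that region was expressed. Of 15 genes around them 14 were tested. Limma called 0 without the block and 0 with it, beside 0.0% and 0.0155% of all genes. At an unadjusted p under 0.05, where 1.72% of all genes passed without the block and 12.6% with it, 0 of the 14 neighbours did. Their median log2 fold change was 0.039, with 4 lower and 10 higher. The most abundant, *PDIA3*, which folds proteins in the endoplasmic reticulum, was at 149 ± 4.24 FPKM in control and 148 ± 1.71 FPKM with MDM4 (SD, n = 3 each). Its log2 fold change of -0.013 turned positive with TPM scaling, with quantile normalization and without control replicate 1. *ADAL* had the largest difference, 0.21 (standard error 0.15). In 1 of the 14, *ELL3*, named after its values were seen, the groups did not overlap, with 2.98 to 3.04 FPKM in control and 3.09 to 3.85 FPKM with MDM4. This share is near the 6.85% of all tested genes without overlap and is no result about the neighbours. *STRC*, which overlaps *CKMT1B* on the opposite strand, had 18 to 30 reads per library and did not pass the filter.

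Mitochondrial creatine kinase works beside the outer-membrane channels of the VDAC family and the ADP/ATP carriers of the inner membrane. All 6 of these partners were tested. Limma called 0 without the block and 0 with it, beside 0.0% and 0.0155% of all genes. At an unadjusted p under 0.05 there were 0 without the block and 1 of 6 with it, beside 1.72% and 12.6% of all genes. All 6 fold changes were below 0, with a median of -0.070 on the log2 scale, where the median of all tested genes was -0.0091. The value nearest 0 was that of *VDAC3*, at -0.0046, above the median of all genes. With TPM scaling that median was 0.02, so signs this near 0 can depend on scaling. The most abundant was the carrier *SLC25A5*, at 396 ± 22.7 FPKM in control and 370 ± 19.8 FPKM with MDM4 (SD, n = 3 each; log2 fold change -0.099, standard error 0.065). The largest difference was that of *SLC25A6*, at -0.14 (standard error 0.16), and it ranged from -0.27 without control replicate 2 to -0.0475 without control replicate 1.

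Adenylate kinases and nucleoside diphosphate kinases also move phosphate between nucleotides. Of 14 listed, 12 were tested, 7 lower and 5 higher. Limma called 0 without the block and 0 with it, beside 0.0% and 0.0155% of all genes. At an unadjusted p under 0.05 there were 0 without the block and 1 of 12 with it, again beside 1.72% and 12.6% of all genes. *NME3* had the largest fold change, -0.23 on the log2 scale (standard error 0.15), which was -0.13 without control replicate 3 or MDM4 replicate 1 and -0.36 without control replicate 2.

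Creatine synthesis draws on arginine, glycine and the methyl donor S-adenosylmethionine. Of 14 genes for making, carrying, using or breaking down arginine, glycine, S-adenosylmethionine or their products, 13 were tested. Of these 7 were lower and 6 higher, with a median log2 fold change of -0.018. Limma called 0 of 13 without the block and 0 with it, beside 0.0% and 0.0155% of all genes. At an unadjusted p under 0.05 there were also 0 without the block and 0 with it, beside 1.72% and 12.6% of all genes. *MAT2A*, which makes S-adenosylmethionine in most tissues and was the most abundant, was at 189 ± 45.8 FPKM in control and 194 ± 49.8 FPKM with MDM4 (SD, n = 3 each). Its log2 fold change of 0.038 turned negative without control replicate 3, without MDM4 replicate 1 or without MDM4 replicate 2. The liver form *MAT1A* had the largest difference, -0.42 (standard error 0.25), from 0.621 to 0.873 FPKM in control and 0.460 to 0.525 FPKM with MDM4. It was -0.28 without control replicate 2 and -0.18 with a pseudocount of 1. Its groups did not overlap, which makes 1 of 13 in this list beside 6.85% of all tested genes.

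**Figure D5:**
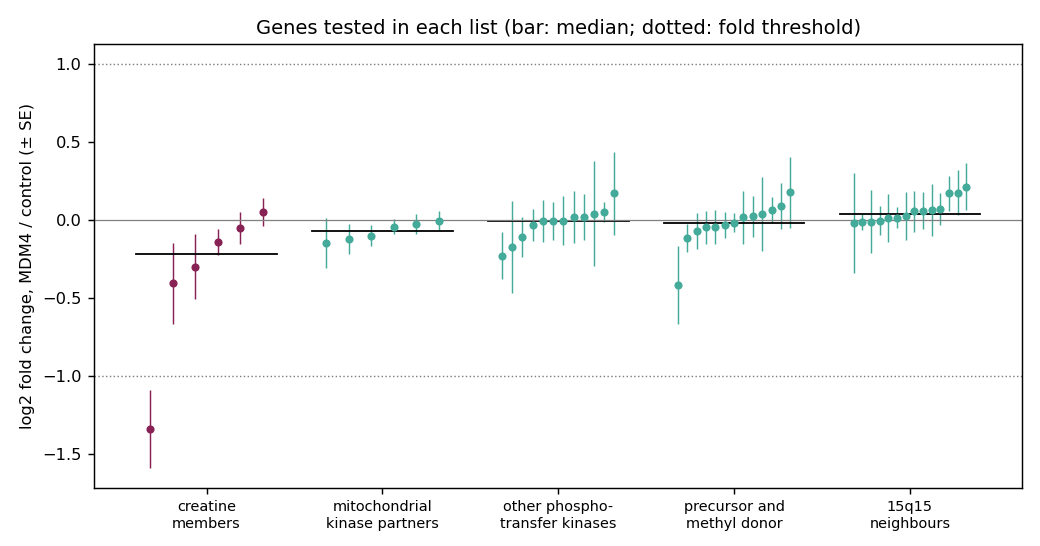
Log2 fold change (MDM4 over control, limma, points with standard error) of every tested gene in the creatine list and the 4 related lists, with a bar at each median and dotted lines at the fold threshold of 1. *CKMT1B*, at -1.34, is the only point beyond a dotted line, and the medians are -0.22, -0.070, -0.0042, -0.018 and 0.039 from left to right.

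The genes whose pattern over the 6 libraries was most like that of both *CKMT1* copies together were sought among the 9103 genes that averaged 5 FPKM or more. *RCN1* (Pearson r = 0.988), *ACTR3B* (0.983), *MRPS36* (0.976), *HINT1* (0.974) and *NDUFA2* (0.968) led on log2(FPKM + 0.1). With 6 libraries in 2 groups and so many genes, these values are given as a description. *RCN1*, a calcium-binding protein of the endoplasmic reticulum, was at 308, 326 and 324 FPKM in control and at 275, 276 and 294 FPKM in MDM4 replicates 1 to 3. Its log2 fold change was only -0.18 (standard error 0.054), against -1.19 for both copies.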

How the data were processed

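Poly(A) RNA of SW480 cells was read as 6 Illumina libraries. The values the authors deposited are FPKM for 19225 symbols, 2036 of them at 0 throughout. The aligner, counting rule, annotation and build are not given in the sources used here. Column names carry a letter and a number, read as group and replicate. Whole reads were recovered for all 17189 symbols above 0 from the steps of the values, and implied gene lengths were whole within 0.01 base in 99.1% of 15146 genes with at least 20 reads. Log2(FPKM + 0.1) of genes averaging 0.5 FPKM or more entered limma 3.58.1 (R 4.3.3, eBayes with trend, Benjamini-Hochberg over all genes), without a block. The fit and the recovery were tested on simulated data. *MDM4* was compared by exact permutation in scipy 1.17.1.

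The members and lists were chosen with earlier results of these data known. Named genes are *MDM4*, the 8 members, each list's called genes or otherwise its most abundant and most different gene, and the 5 genes of most similar pattern. The most abundant gene of 1 list is not reported here. *ELL3*, *DES* and *TNNT2* were named after their values were seen. Deviations from the group mean correlated at 0.458, 0.451 and 0.783 across genes in same-numbered libraries. Replicates 1 and 2 also correlated across numbers (0.439 to 0.462), and negatively with replicate 3 of the other group (-0.625 to -0.563). These values set replicate 3 apart but cannot show how replicates 1 and 2 pair. The pairing was taken from the replicate numbers. Alternatives were the block, eBayes without trend, voom, libraries left out, and different scalings, filters and pseudocounts. Positions and transcripts come from GENCODE release 29 (GRCh38), and promoters from RefSeq, which gave windows for 7 of the 8 members. Sequences were matched by symbol.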

Additional observations from a re-analysis of the deposited data

Results flagged for a closer look

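The level of *MDM4* with MDM4 was 56.3 FPKM in replicate 3, against 188 and 185 FPKM in replicates 1 and 2. The limma term for the effect in replicate 3 minus that in replicates 1 and 2 was -1.35 on the log2 scale (standard error 0.15, adjusted p = 0.00166). It rests on 1 library per group in replicate 3, with the spread taken from replicates 1 and 2 alone, so that the p assumes equal spread in replicate 3. None of the 6 creatine genes tested met this criterion, and none of the groups of 3 libraries was large enough for a check of outlying samples.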

How the results depend on the processing

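Limma called 0 genes without a block, 2 with the replicate block, 37 over replicates 1 and 2 alone and 14 with voom and the replicate block, and 0 to 16 when 1 library was left out (16 without control replicate 3, 1 without MDM4 replicate 3). Of the creatine genes it called 0 without a block and 1, *CKMT1B*, with the replicate block, over replicates 1 and 2 alone and with voom and the block. The block changed no other call among the members and lists. The replicate 3 term passed in 25 genes, but in 0 without a filter and in 5 with eBayes without trend. Without 1 library at a time, the log2 fold change turned in *CKB* (-0.0501 to 0.121, without control replicate 2), *GAMT* (-0.12 to 0.012, without control replicate 3 or MDM4 replicate 1), *MAT2A* (-0.18 to 0.27, without control replicate 3, MDM4 replicate 1 or MDM4 replicate 2) and *PDIA3* (-0.026 to 0.0099, without control replicate 1), and in *PDIA3* also with TPM scaling (0.016) and quantile normalization (0.011). The cause was not tested. Over all settings the log2 fold change of *CKMT1B* stayed between -1.54 (without MDM4 replicate 3) and -1.01 (pseudocount 1). Of 394 single-gene values under alternatives, 377 kept direction and call. Depth limits *CKM* and *GATM*, and *CKMT1A* with 29 to 70 reads.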

Other observations

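Some single genes, named after their values were seen, had their highest or lowest level in replicate 3 of either group, the replicate that stood apart over all genes. *DES*, the muscle intermediate filament and the most abundant of the 10 muscle markers, was at 3.0, 2.87 and 4.21 FPKM in control and at 1.95, 2.41 and 3.76 FPKM in MDM4 replicates 1 to 3, highest in replicate 3. *TNNT2*, the cardiac troponin T and the only other muscle marker to reach a mean of 0.5 FPKM, was lowest there, at 0.994, 0.576 and 0.319 FPKM in control and at 0.658, 0.764 and 0.544 FPKM in MDM4 replicates 1 to 3. With 15 to 52 reads per library, the order of its replicates rests on few reads. *MAT2A* was also lowest in replicate 3, at 215, 215 and 136 FPKM in control and at 226, 220 and 137 FPKM with MDM4. No theme is read from these genes, and what sets replicate 3 apart was not tested.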
